A study of Homo sapiens with 6 samples.

Results

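The genes described here encode 9 enzymes of serine and glycine synthesis and of the folate-linked one-carbon pathway, namely PHGDH, PSAT1, PSPH, SHMT1, SHMT2, MTHFD1, MTHFD1L, MTHFD2 and ALDH1L2. They were chosen by name for their place in the pathway, out of 57773 genes in the count table, and all 9 were among the 16290 genes that passed the filter on low counts and were tested. Their transcripts were measured by RNA sequencing in SW872, an established human liposarcoma cell line grown in RPMI-1640 with 10% FBS. Apatinib, a small-molecule inhibitor of the VEGFR2 tyrosine kinase, was given at 18 μM for 24 h to 3 replicates, and the 3 control replicates were labelled as having no treatment. The comparison asks which transcripts differed after Apatinib. All 6 libraries came from a single cell line, and the methods of the study call the replicates biological without saying what separated them, so p values measure the spread between these samples.

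Serine is made from the glycolytic intermediate 3-phosphoglycerate by PHGDH, PSAT1 and PSPH in turn. SHMT1 in the cytosol and SHMT2 in mitochondria then convert serine to glycine and pass its side-chain carbon to folate. MTHFD2, MTHFD1L and ALDH1L2 carry that carbon through the mitochondrial folate pool, and MTHFD1 carries it through the cytosolic pool, where it feeds purine, thymidylate and methionine synthesis. The transcription factor ATF4 is a textbook activator of the serine synthesis genes and of the mitochondrial folate genes.

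The total of counts in a library lay between 17043314 and 22067558. Apatinib replicate 2 stood apart from the other Apatinib replicates, since the chi-square of their counts, averaged over genes, was 44.5 against replicate 1 and 34.3 against replicate 3, where replicates 1 and 3 gave 18.2. Apatinib replicates 1 and 3 were each closer to control replicate 3, at 40.5 and 26.5, than to Apatinib replicate 2. Control replicates 1 and 2 were much closer to each other, at 2.27, than either was to control replicate 3, at 22.4 and 22.9. Both were kept as samples, as labelled, although the measure cannot show that they were separate cultures, and with their counts summed as 1 sample 2 of the 4 enzyme calls given below were lost. Called results of the enzyme genes that changed without a library are given with that value. The mesenchymal markers had a summed level of 5156 to 6083 CPM with Apatinib and 4304 to 4452 CPM in controls. CPM are counts relative to the library total, scaled by the TMM method. None of the 6 mesenchymal markers was called. Adipocyte markers summed to between 65.4 and 89.5 CPM with Apatinib and between 61.4 and 63.0 CPM in controls. Most of this was PPARG, at 50.0 to 64.2 CPM with Apatinib and 50.1 to 51.9 CPM in controls. LPL had 8.57 to 23.5 CPM over all libraries, and PLIN1 at most 1.69 CPM. ADIPOQ and FABP4, defining markers of mature adipocytes, were at 0 in all 6 libraries, and CIDEC had at most 1 count. Summed CPM ranged from 2.75 to 4.01 with Apatinib and from 4.50 to 5.44 in controls for leukocyte markers, with PTPRC at 0 in all 6 libraries, and from 2.71 to 4.41 and from 2.86 to 3.99 for endothelial markers. The leukocyte sum rests almost wholly on CD14, since CD68, which overlaps another gene on the same strand, had no more than 1 count in any library although its deposited FPKM was 11.8, 8.56 and 6.78 in Apatinib replicates 1 to 3 and lower in each control, with a lowest value of 1.79. Epithelial markers summed to between 124 and 156 CPM with Apatinib and between 93.3 and 109 CPM in controls, almost all of it KRT8 and KRT18, with EPCAM and CDH1 at no more than 7 counts. Of the markers tested, KRT8 (0.71), the endothelial gene VWF (1.52) and LPL (0.84), a lipase of adipocytes, were called higher and CDH5 (-1.22), an endothelial cadherin, lower, and the part of other cell types in the results was not tested.

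Of the 9 enzyme genes, 4 were higher with Apatinib and none lower. These 4 were PSAT1, PHGDH, SHMT2 and MTHFD1L, with folds of 2.76, 2.51, 2.01 and 1.64. A gene was called where its FDR in the quasi-likelihood F test of edgeR was under 0.05 and its log2 fold change over 0.5 in size. By the same rule 11.5% of all genes tested were called, 5.97% higher and 5.48% lower with Apatinib. In 7 of the 9 genes every Apatinib replicate lay above every control replicate, as it did in 17.5% of all genes tested. MTHFD1 was the single enzyme gene with every Apatinib replicate below every control replicate, as in 15.7% of all genes, and SHMT1 overlapped. The median log2 fold change was 0.75 over the 9 enzyme genes and 0.00 over all genes tested. The call was kept by PHGDH and PSAT1 in all 6 fits that left out a library, and by SHMT2 and MTHFD1L in 4 of them.

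**Figure D1:**
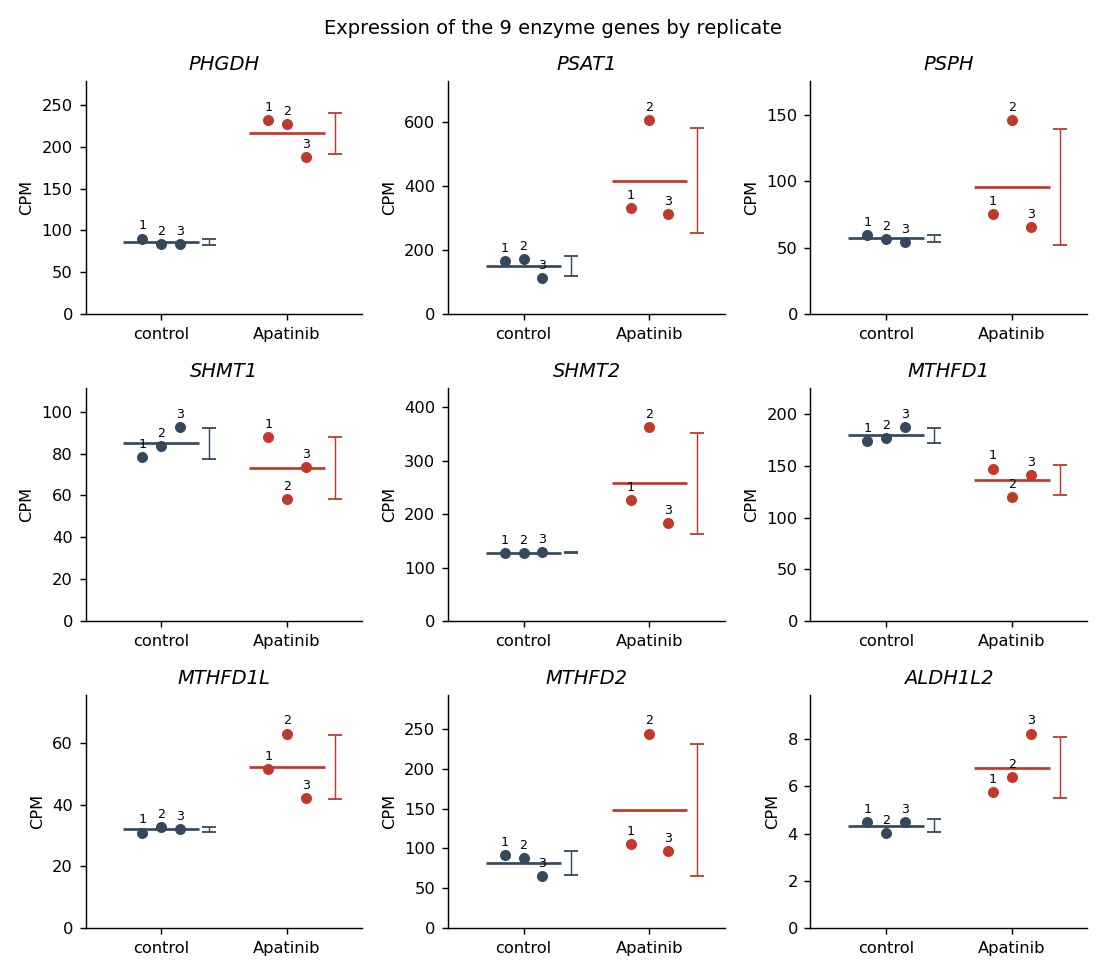
Expression of each enzyme gene in CPM by replicate, with control replicates in blue, Apatinib replicates in red, numbers giving the replicate, horizontal lines the means and bars ± 1 SD (n = 3). The groups are separate in all panels but that of SHMT1, and Apatinib replicate 2 is the highest Apatinib replicate in 5 panels and the lowest in 2.

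PHGDH (ENSG00000092621) catalyses the first and committed step of serine synthesis from 3-phosphoglycerate. Its level was 232, 227 and 188 CPM in Apatinib replicates 1 to 3, and 90.4, 83.6 and 84.4 CPM in control replicates 1 to 3. The lowest Apatinib replicate lay far above the highest control, and no single Apatinib replicate carried the difference. PHGDH rose by a log2 fold change of 1.33 (SE 0.12, 95% CI 1.05 to 1.60, edgeR FDR 0.000437), the tenth smallest p value of all genes tested. Leaving out each library in turn gave log2 fold changes between 1.27 and 1.42, all of them called.

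PSAT1 (ENSG00000135069) encodes the aminotransferase of the second step, which takes its nitrogen from glutamate. Its level was 331, 605 and 312 CPM in Apatinib replicates 1 to 3, and 167, 172 and 114 CPM in control replicates 1 to 3. Apatinib replicate 2 was the highest library and control replicate 3 the lowest, and the groups did not overlap. PSAT1 rose by a log2 fold change of 1.46 (SE 0.25, edgeR FDR 0.00718), a fold of 2.76 with a 95% CI of 1.90 to 4.01 and the largest change of the 9 enzyme genes. It was 1.10 without Apatinib replicate 2 (edgeR FDR 0.00748) and was called in every fit that left out a library.

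PSPH (ENSG00000146733) encodes the phosphatase that releases serine in the last step. Its level was 75.3, 146 and 66.0 CPM in Apatinib replicates 1 to 3, and 59.9, 56.9 and 54.7 CPM in control replicates 1 to 3. Every Apatinib replicate was above every control, but replicates 1 and 3 lay just above them and replicate 2 was 2.07 times the mean of the other Apatinib replicates. The log2 fold change of 0.75 (SE 0.24, 95% CI 0.21 to 1.28, edgeR FDR 0.0652) did not pass the test, and it was 0.31 without Apatinib replicate 2 and 0.96, with an edgeR FDR of 0.0309, without Apatinib replicate 3. The unprocessed pseudogene PSPHP1 held between 247 and 330 counts in a library, and how reads shared with it were counted is not given in the sources used here. The other 13 pseudogenes named after the 9 enzyme genes had at most 4 counts in any library.

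SHMT2 (ENSG00000182199) encodes the mitochondrial serine hydroxymethyltransferase. Its level was 226, 363 and 184 CPM in Apatinib replicates 1 to 3, and 128, 127 and 129 CPM in control replicates 1 to 3. The controls lay almost at 1 level, and the Apatinib replicates were above them and spread widely, with replicate 2 the highest. SHMT2 rose by a log2 fold change of 1.01 (SE 0.21, 95% CI 0.55 to 1.46, edgeR FDR 0.0139). The change was 0.68 without Apatinib replicate 2 (edgeR FDR 0.0113), and the call was lost without control replicate 1 (edgeR FDR 0.0650) or control replicate 2 (0.0623). Exons of NDUFA4L2 overlap SHMT2 on the opposite strand. NDUFA4L2 had 4.71, 8.35 and 4.46 CPM with Apatinib and 2.14, 2.25 and 1.42 CPM in controls, and since strand use in counting is not stated, reads of the pair cannot be told apart in the overlap.

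SHMT1 (ENSG00000176974) encodes the cytosolic form of the same enzyme. Its level was 87.8, 58.4 and 73.6 CPM in Apatinib replicates 1 to 3, and 78.2, 83.6 and 92.9 CPM in control replicates 1 to 3. The groups overlapped, with Apatinib replicate 1 above control replicates 1 and 2. The log2 fold change was -0.21 (SE 0.15, 95% CI -0.55 to 0.12, edgeR FDR 0.380).

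MTHFD2 (ENSG00000065911) encodes the mitochondrial methylenetetrahydrofolate dehydrogenase and cyclohydrolase. Its level was 105, 244 and 96.2 CPM in Apatinib replicates 1 to 3, and 91.9, 88.2 and 64.9 CPM in control replicates 1 to 3. Apatinib replicate 2 was 2.43 times the mean of the other Apatinib replicates, the largest such ratio among the 9 enzyme genes, and Apatinib replicates 1 and 3 were close to control replicates 1 and 2. The log2 fold change of 0.86 (SE 0.30, 95% CI 0.21 to 1.52, edgeR FDR 0.0777) did not pass the test. It was 0.31 (edgeR FDR 0.195) without Apatinib replicate 2 and 1.10 (edgeR FDR 0.0417) without Apatinib replicate 3.

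MTHFD1L (ENSG00000120254) encodes the mitochondrial 10-formyltetrahydrofolate synthetase, which releases formate. Its level was 51.7, 63.2 and 42.3 CPM in Apatinib replicates 1 to 3, and 31.0, 32.9 and 32.1 CPM in control replicates 1 to 3. The controls were tightly grouped below all Apatinib replicates, of which replicate 2 was the highest. MTHFD1L rose by a log2 fold change of 0.71 (SE 0.15, 95% CI 0.38 to 1.04, edgeR FDR 0.0157). It was 0.56 without Apatinib replicate 2 (edgeR FDR 0.0269), and the call was lost without control replicate 1 (edgeR FDR 0.0887) or control replicate 2 (0.0756).

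MTHFD1 (ENSG00000100714) encodes the trifunctional cytosolic enzyme that covers the steps of MTHFD2 and MTHFD1L in the cytosol. Its level was 147, 120 and 141 CPM in Apatinib replicates 1 to 3, and 174, 177 and 188 CPM in control replicates 1 to 3. All Apatinib replicates were below all controls, and Apatinib replicate 2 was the lowest. The log2 fold change of -0.40 (SE 0.12, 95% CI -0.66 to -0.14, edgeR FDR 0.0506) missed the FDR limit narrowly and was under 0.5 in size. The overlapping gene ZBTB25 on the opposite strand had 34.4, 56.4 and 44.8 CPM with Apatinib and 42.8, 45.6 and 34.4 CPM in controls.

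ALDH1L2 (ENSG00000136010) encodes the mitochondrial 10-formyltetrahydrofolate dehydrogenase, which oxidises the formyl group to carbon dioxide. Its level was 5.76, 6.38 and 8.24 CPM in Apatinib replicates 1 to 3, and 4.50, 4.01 and 4.49 CPM in control replicates 1 to 3. The groups were separate, and here Apatinib replicate 3, not 2, was the highest. The log2 fold change of 0.65 (SE 0.20, 95% CI 0.21 to 1.08, edgeR FDR 0.0531) did not pass the test. Exons of C12orf45, at 8.84, 11.6 and 6.12 CPM with Apatinib and 6.98, 6.38 and 6.92 CPM in controls, overlap ALDH1L2 on the opposite strand, and it held more counts than ALDH1L2 in all libraries but Apatinib replicate 3.

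**Figure D2:**
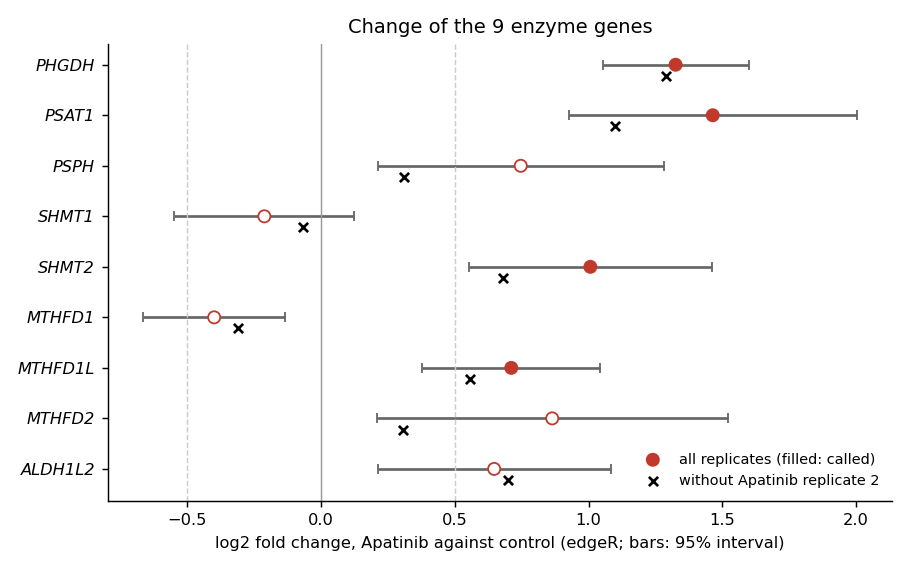
Log2 fold change of each enzyme gene, Apatinib against control, with 95% confidence intervals by edgeR (n = 3 in each group), filled points for called genes, crosses for the value without Apatinib replicate 2 and dashed lines at ± 0.5. The point estimate is above 0 for 7 genes and below 0 for MTHFD1 and SHMT1, and PSAT1 has the largest value, 1.46.

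The enzyme genes were put in order of level only per transcript length, as the deposited FPKM (fragments scaled to transcript length and to the mapped fragments of the library). In controls the order of mean FPKM was MTHFD1 53.7, PSAT1 48.3, SHMT2 40.1, PHGDH 32.0, SHMT1 26.9, PSPH 24.5, MTHFD2 23.5, MTHFD1L 7.19 and ALDH1L2 0.423. MTHFD1, PSAT1 and SHMT2 overlapped their neighbours in that order within 1 SD, as did SHMT1, PSPH and MTHFD2. With Apatinib the order was PSAT1 139, SHMT2 83.0, PHGDH 79.3, MTHFD2 41.7, MTHFD1 40.8, PSPH 39.6, SHMT1 23.0, MTHFD1L 11.5 and ALDH1L2 0.663. Here PSAT1, SHMT2 and PHGDH overlapped their neighbours within 1 SD, as did MTHFD2, MTHFD1, PSPH and SHMT1.

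Summed by step, the FPKM of the serine synthesis genes PHGDH, PSAT1 and PSPH with Apatinib was 214, 356 and 204 in replicates 1 to 3, against 116, 109 and 89.2 in the controls. The mitochondrial folate genes SHMT2, MTHFD2, MTHFD1L and ALDH1L2 summed to 104, 208 and 98.3 FPKM with Apatinib and 77.3, 71.0 and 65.5 FPKM in controls. The cytosolic genes SHMT1 and MTHFD1 summed to 69.0, 57.0 and 65.5 FPKM with Apatinib and 79.2, 77.8 and 84.6 FPKM in controls. For each of the 3 sums the groups did not overlap, and Apatinib replicate 2 held the extreme value of all 6 libraries.

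The mitochondrial enzyme genes were also set against related genes within each library, as log2 ratios of CPM. The SHMT2 to SHMT1 ratio with Apatinib was 1.36, 2.64 and 1.32 in replicates 1 to 3, against 0.71, 0.61 and 0.48 in the controls, a difference of 1.17, or 0.74 without Apatinib replicate 2. The MTHFD1L to MTHFD1 ratio was -1.51, -0.93 and -1.74 with Apatinib and -2.49, -2.43 and -2.55 in controls, a difference of 1.10. In both ratios every Apatinib replicate lay above every control. The ratio of MTHFD2 to MTHFD2L, its less abundant mitochondrial isozyme, was 4.91, 5.60 and 4.19 with Apatinib and 3.26, 3.47 and 3.75 in controls, a difference of 1.41 without overlap. The ALDH1L2 to ALDH1L1 ratio, against the cytosolic form, was 0.50, 1.21 and 1.53 with Apatinib and 1.04, 1.28 and 1.49 in controls, a difference of -0.19 with overlap. The exact two-sided permutation test gave p = 0.1 for the first 3 ratios, the smallest value that 3 against 3 samples allow, and p = 0.7 for the last, or 0.133 and 0.700 after adjustment over the 4 ratios.

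**Figure D3:**
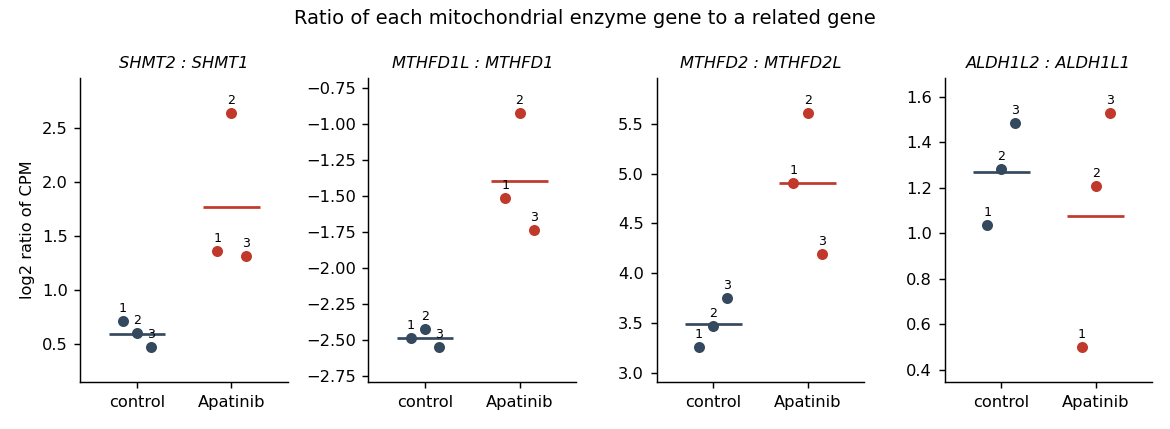
Log2 ratio of CPM of each mitochondrial enzyme gene to a related gene in each replicate, with lines at the means and numbers giving the replicate. The groups are separate for SHMT2 to SHMT1, MTHFD1L to MTHFD1 and MTHFD2 to MTHFD2L, with differences of 1.17, 1.10 and 1.41, and overlap for ALDH1L2 to ALDH1L1.

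Promoter sequence from RefSeq (GRCh38.p14), 250 bases before to 50 after each listed start, was given for 6 of the 9 enzyme genes. It was searched on both strands for TGATGNAA, the letters of the C/EBP-ATF response element that ATF4 binds, and for CACGTG, the E-box letters. TGATGNAA was found in 3 of the 4 promoter entries of MTHFD1L and in no entry of PHGDH, PSAT1, SHMT1, MTHFD1 or MTHFD2, and 3.62% of all 35116 promoter entries hold it. CACGTG was found for MTHFD1 and MTHFD1L and in 7.26% of all entries. The E2F letters TTTCGCGC were in none of the 6 and in 0.515% of all entries. The stretches with matches are shown for the single enzyme gene with TGATGNAA and for the single enzyme gene below the controls, with the match in capitals, and they describe letters only.
MTHFD1L, chr6:150866346-150866375, + strand: gccgccggctcTGATGCAAtcgcgccgggc
MTHFD1, chr14:64388293-64388352, + strand: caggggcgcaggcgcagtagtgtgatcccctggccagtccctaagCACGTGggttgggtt

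Neighbouring steps of the pathway were described by lists. On the lists for other folate enzymes, folate transport, glycine cleavage, folate-using nucleotide synthesis, the methionine cycle, transsulfuration, serine and glycine breakdown and transport, 40 genes were tested, of which 5 were called higher and 2 lower (11.5% of all genes tested were called), and their median log2 fold change was 0.04.

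MTHFD2L had 3.49, 5.02 and 5.27 CPM in Apatinib replicates 1 to 3 and 9.58, 7.97 and 4.81 CPM in control replicates 1 to 3, which overlap (log2 fold change -0.69, edgeR FDR 0.105, and -0.93 with 0.0161 without control replicate 3). ALDH1L1 had 4.07, 2.77 and 2.86 CPM with Apatinib and 2.19, 1.65 and 1.60 CPM in controls (log2 fold change 0.84, edgeR FDR 0.0568). MTHFD2L, ALDH1L1 and GGH, which removes the polyglutamate tail of folate (-0.70, edgeR FDR 0.0569), did not pass the edgeR test with all 6 libraries. DESeq2 called GGH lower with all 6 libraries (-0.69, FDR 0.0118). GGH passed the edgeR test without Apatinib replicate 3 (-0.97, edgeR FDR 0.0206) or control replicate 3 (-0.78, edgeR FDR 0.0313), and had -0.45 without Apatinib replicate 2. Of the 9 other folate enzyme genes tested, edgeR called 1 lower, not named here, and none higher. Their median was -0.48, and 5.48% of all genes tested were called lower. FPGS, which adds that tail, passed the FDR limit at a log2 fold change of 0.44 (edgeR FDR 0.0428), under the size limit, and was called without control replicate 3 (0.53, edgeR FDR 0.0254). Among 4 folate transport genes none was called by edgeR (1 had an unadjusted p under 0.05), with a median of 0.15 and FOLR1 the largest at 0.80 (edgeR FDR 0.126).

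For the users of folate units, the nucleotide synthesis genes, none of 3 was called by edgeR (an unadjusted p under 0.05 in 1 of them) and the median was 0.03. TYMS, which makes thymidylate, had 38.6, 23.1 and 39.1 CPM in Apatinib replicates 1 to 3 and 47.4, 45.5 and 51.7 CPM in control replicates 1 to 3, without overlap (log2 fold change -0.52, edgeR FDR 0.0833). It was called by DESeq2 (-0.52, FDR 0.0466), and its log2 fold change was -0.31 without Apatinib replicate 2 (edgeR FDR 0.118). The purine synthesis genes GART and ATIC had values of 0.03 and 0.07. In the glycine cleavage system 1 of 3 was called (11.5% of all genes tested were). DLD, which also serves the pyruvate dehydrogenase complex, fell by 0.51 on the log2 scale (edgeR FDR 0.0394), while GCSH had a value of -0.19 and AMT one of 0.65 (edgeR FDR 0.0783). AMT was called in 2 of the 6 fits that left out a library, one of them without control replicate 3 (edgeR FDR 0.0427). The call of DLD was kept without Apatinib replicate 3 or control replicate 3, and lost without any of the other 4 libraries.

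CBS, which joins serine to homocysteine in transsulfuration, had 221, 265 and 190 CPM in Apatinib replicates 1 to 3 and 111, 109 and 113 CPM in control replicates 1 to 3. No Apatinib replicate came near the controls. CBS rose by a log2 fold change of 1.02 (SE 0.14, edgeR FDR 0.00358), called in all 6 fits that left out a library. CTH, the next enzyme, had 14.1, 42.2 and 11.7 CPM with Apatinib and 13.4, 12.0 and 7.65 CPM in controls, which overlap, and its log2 fold change of 1.05 (edgeR FDR 0.110) was 0.24 without Apatinib replicate 2. In the methionine cycle 1 of 9 genes was called (11.5% of all genes tested were), with a median of -0.09. It was MAT1A, at no more than 1.35 CPM in any library (1.94, edgeR FDR 0.0352), and no fit that left out a library called it. MTR, methionine synthase, had -0.42 (edgeR FDR 0.0535).

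Of 10 genes for serine and glycine breakdown and transport, 3 were higher and none lower, where 5.97% of all genes tested were higher, with a median of 0.55. The neutral amino acid carriers SLC1A5 and SLC1A4 rose by 0.82 and 0.79 (edgeR FDR 0.0377 and 0.0422), and the serine dehydratase-like gene SDSL by 0.79 (edgeR FDR 0.0392). SLC1A5 had 401, 672 and 312 CPM with Apatinib and 272, 264 and 249 CPM in controls. These 3 calls were kept without Apatinib replicate 3 or control replicate 3 and lost without any of the other 4 libraries, and without Apatinib replicate 2 their log2 fold changes were 0.45, 0.41 and 0.47, under the size limit. The mitochondrial serine carrier SFXN1 had -0.20 (edgeR FDR 0.289). On the glycolysis side 2 of 3 genes were called lower, where 5.48% of all genes tested were. These were PGK1, which makes the 3-phosphoglycerate that PHGDH uses (-0.51, edgeR FDR 0.0496), and PGAM1, which draws it off (-0.64, edgeR FDR 0.0423), and GAPDH had -0.23. Both calls were kept without Apatinib replicate 1 and lost without any of the other 5 libraries.

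**Figure D4:**
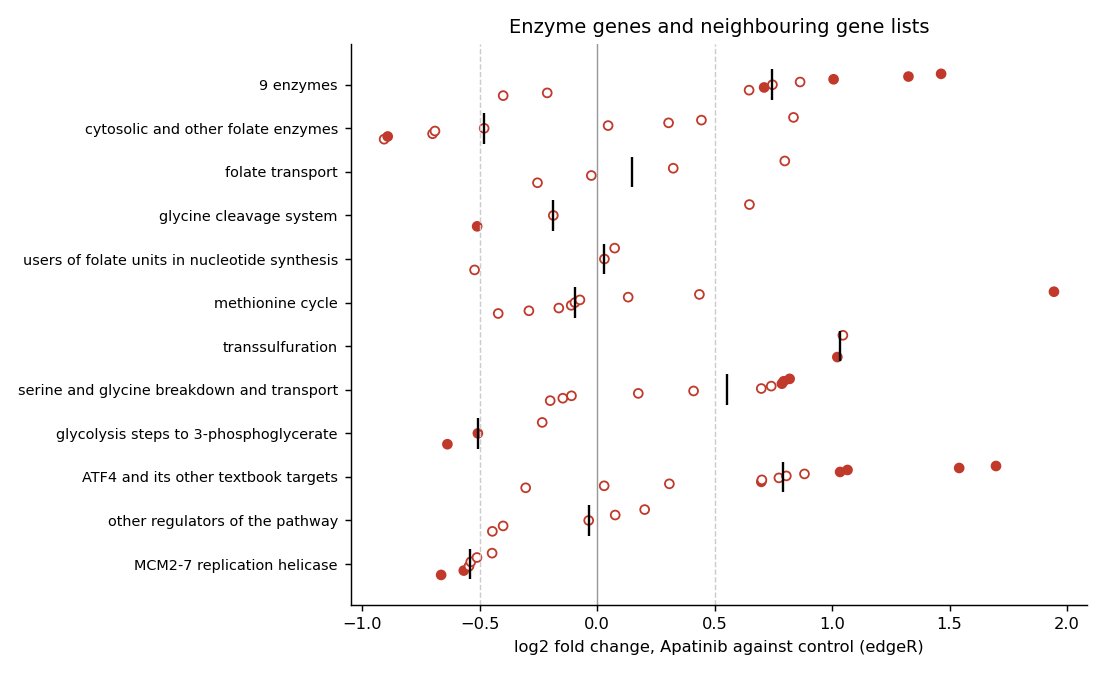
Log2 fold change of every tested gene on each list, with filled points for called genes, open points for the others, vertical ticks at the list medians and dashed lines at ± 0.5. The 9 enzyme genes have a median of 0.75 with 4 called, against -0.09 with 1 called for the methionine cycle and 0.79 with 5 called for ATF4 and its other targets.

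ATF4 itself was 416, 473 and 366 CPM in Apatinib replicates 1 to 3 and 245, 246 and 283 CPM in control replicates 1 to 3. The groups did not overlap. ATF4 rose by 0.70 on the log2 scale (SE 0.13, edgeR FDR 0.0104), and its call was lost without control replicate 1 or 2, the highest edgeR FDR being 0.0721. Of 12 genes on the list of ATF4 and its other targets, 5 were higher and none lower, where 5.97% of all genes tested were higher, with a median of 0.79. Beside ATF4 these were ASNS, which makes asparagine (1.70, edgeR FDR 0.00847), the pseudokinase gene TRIB3 (1.54, edgeR FDR 0.0268), and SLC7A5 (1.07, edgeR FDR 0.0256) and SLC3A2 (1.03, edgeR FDR 0.0453), the subunits of a large neutral amino acid transporter. ASNS was called in all 6 fits that left out a library. TRIB3 and SLC7A5 lost theirs without control replicate 1 or 2, as SLC3A2 did, which also lost it without Apatinib replicate 1 or 2. Without Apatinib replicate 2 the log2 fold changes were 0.81 for TRIB3, 0.63 for SLC7A5 and 0.46 for SLC3A2. DESeq2 called 4 genes of the list, and 2046 of the 14408 genes it tested. Neither TRIB3 (DESeq2 FDR 0.0602) nor SLC3A2 (DESeq2 FDR 0.124) was among the 4.

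Apatinib replicate 2 was the highest Apatinib replicate for 11 of these 12 genes, for 5 of the 9 enzyme genes and for 35.9% of all genes tested. DDIT3, which encodes CHOP, had a log2 value of 0.77 with all libraries and -0.03 without it, and SESN2 had 0.81 and 0.00, and neither gene was called in either fit. For PHGDH, by contrast, Apatinib replicate 2 was 1.08 times the mean of the other Apatinib replicates. SLC7A11, the cystine transporter on the same list, had 52.7, 105 and 64.9 CPM with Apatinib and 90.0, 89.7 and 39.0 CPM in controls, with a log2 fold change of 0.03. The other regulators MYC, NFE2L2, E2F1 and MTOR had log2 fold changes of 0.08, -0.45, -0.40 and -0.04, and none of these 4 was called. Without Apatinib replicate 2, NFE2L2 was called lower (-0.70, edgeR FDR 0.0342) and MYC had -0.39 (edgeR FDR 0.0976).

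The genes MCM2 to MCM7 encode the replication helicase. All 6 had every Apatinib replicate below every control (15.7% of all genes tested did) and their lowest value in Apatinib replicate 2, with a median log2 fold change of -0.54. MCM4 (-0.66, edgeR FDR 0.0255) and MCM3 (-0.57, edgeR FDR 0.0475) were called lower by edgeR, as were 5.48% of all genes tested. DESeq2 called 5 of the 6 genes lower, and 1049 of the 14408 genes it tested. Without Apatinib replicate 2 the log2 fold changes of MCM4 and MCM3 were -0.48 and -0.37. Both calls were also lost without control replicate 1 or 2, and that of MCM3 without Apatinib replicate 1 or control replicate 3. The part that differences between libraries have in the enzyme results was not tested.

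**Figure D5:**
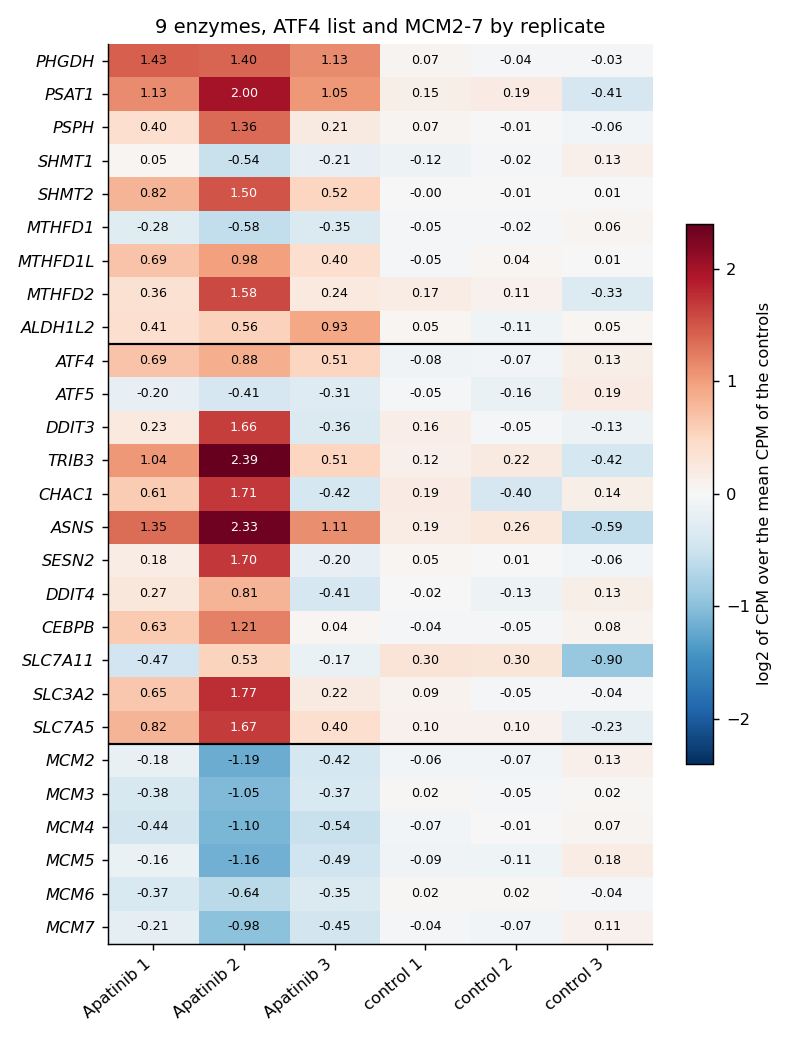
Log2 of CPM over the control mean for the 9 enzyme genes, the list of ATF4 and its other targets and MCM2 to MCM7, with 1 column for each replicate. Apatinib replicate 2 holds the strongest values for most genes, such as PSPH at 1.36 and MTHFD2 at 1.58, whereas PHGDH has 1.43, 1.40 and 1.13 in Apatinib replicates 1 to 3.

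Across the 6 samples, log2 CPM of the enzyme genes varied together to different degrees. Pearson's r, given as a description over 6 samples that fall into 2 treatment groups, was 0.91 for PHGDH with PSAT1, 0.98 for PSPH with MTHFD2 and 0.99 for SHMT2 with MTHFD1L. MTHFD1 ran opposite to PSAT1, with an r of -0.99. PHGDH with MTHFD2 had an r of 0.68, and ALDH1L2 with MTHFD2 had 0.44.

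The 5 genes with the highest r to each called enzyme gene were picked from all genes tested, so high values were selected for. For PHGDH they were COL6A3, COL4A1, DOPEY2, PYCR1 and FHL1 (r at least 0.997), with PYCR1, an enzyme of proline synthesis, at a log2 fold change of 0.83. For PSAT1 they were NDUFA4L2, FRY, ASNS, LINC00941 and FAM129A (r from 0.994 to 0.999, rounded), with ASNS at 1.70 and NDUFA4L2 at 1.60. For SHMT2 they were FAM131A, FBN1, CDCP1, S1PR3 and BCDIN3D-AS1, and for MTHFD1L SERTAD2, MFHAS1, LARP6, AMOTL1 and DNAH2. For MTHFD1, the lower enzyme gene with the smallest p, they were TPX2, POP1, GPR75, GLE1 and LDHA, with TPX2, a spindle assembly factor, at -0.43 and LDHA, lactate dehydrogenase A, at -0.76.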

How the data were processed

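RNA sequencing of SW872 cells gave 3 Apatinib and 3 control libraries, grouped by their titles. The authors deposited counts, whole numbers per Ensembl gene without normalization, and FPKM per sample. The submitters' processing notes name CASAVA, STAR 2.7.1a and hg19. The counting program, its strand setting and the annotation are not given in the sources used here. Columns of other samples inside a sample's FPKM values were not used (1 column, headed with a control sample's label). Counts were tested in R 4.3.3 with edgeR 4.0.16 (filterByExpr, 16290 genes kept, TMM scaling, quasi-likelihood F test, Benjamini-Hochberg adjustment over all genes tested). A call needed an FDR under 0.05 together with a log2 change over 0.5 in size. Correlations used log2 CPM with a prior count of 2, and the log2 ratios used CPM without a prior count. Pair chi-squares took genes whose counts in the 2 libraries summed to 50 or more. Totals of 17043314 to 22067558 counts put the precision of abundant genes at the spread between replicates (biological coefficient of variation 0.149). Overlapping genes and pseudogene names came from GENCODE, and promoter sequence from RefSeq, which are on GRCh38, so coordinates are given for promoters only.

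The members and gene lists were chosen with earlier results of these data known. Named are the 9 enzyme genes, called list genes, the 3 list genes with the smallest p where a list is described, ATF4, TYMS, MTHFD2L, ALDH1L1 and the genes most alike by Pearson's r. Some genes on the lists are counted but not reported here by name. Other list genes with values (AMT, GCSH, SFXN1, GAPDH, DDIT3, SESN2, SLC7A11 and others) and the overlapping genes were named after their values were seen. Alternatives were DESeq2 1.42.0, RLE size factors, no low-count filter, a minimum of 10 counts per sample, a block for the replicate number, the FDR limit alone and leaving out each replicate. Control replicates 1 and 2 summed, and limma 3.58.1 on log2(FPKM + 0.1), were chosen after seeing the data. The edgeR script was tested on simulated data.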

Additional observations from a re-analysis of the deposited data

How the results depend on the processing

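Each of the 9 enzyme genes kept its direction in all 14 alternative settings. The FDR limit alone, 1 of these settings, reused the main fit, so its log2 fold changes could not change direction. Of the resulting 126 log2 fold changes, 112 kept their side of the call limits, 8 passed them newly (PSPH in 4 settings, DESeq2 among them with an FDR of 0.0116, MTHFD2 in 3 and ALDH1L2 in 1) and 6 no longer did (SHMT2 and MTHFD1L, in 3 settings each). The number of enzyme genes called was 4 at first, 7 with no filter on low counts, 2 with control replicates 1 and 2 summed as 1 sample (chosen after seeing the data), and between 2 and 6 when 1 replicate was left out. It was 2 without control replicate 1 or without control replicate 2. Replicate numbers did not pair the samples (correlations of same-numbered deviations -0.259, 0.0808 and -0.220), and with the replicate block 6 enzyme genes were called. The number of called genes on the pathway, regulator and MCM lists was 16, and between 3 and 18 when 1 replicate was left out, 7 without Apatinib replicate 2 and 3 without control replicate 1 or 2. The ALDH1L2 to ALDH1L1 log2 ratio difference was between -0.42 and 0.10 when 1 replicate was left out, with the reversed value of 0.10 without Apatinib replicate 1. Over all genes, 1866 of 16290 tested were called. The number was 275 and 300 without control replicates 1 and 2, and 292 with those controls summed. It was 795 without Apatinib replicate 1, 977 by limma on FPKM and 2215 with the replicate block. Without control replicate 3 it was 2594 (1102 higher and 1492 lower). These settings tested between 16290 and 16822 genes. With no filter on low counts 2559 genes were called, of 32596 tested. The causes were not tested. With 3 replicates in each group the exact permutation test cannot go below 0.1.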
